A study of Arabidopsis thaliana with 10 samples.

Results

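The response of RiD-BRI1/BAK1 seedlings, here called RiD, to rapamycin was measured by sequencing of messenger RNA from whole Arabidopsis thaliana seedlings. It is read from 4 of the 10 libraries of the study, 2 of RiD with a mock treatment and 2 of RiD with 100 nM rapamycin. The 4 libraries of wild-type Col-0, 2 with mock treatment and 2 with 100 nM rapamycin, served to compare the same chemical without the RiD genotype. The last 2 libraries were RiD seedlings given 100 nM brassinolide, the plant hormone, and their values are only set beside the others. All 10 libraries came from seedlings aged 5 days that had been kept in darkness on medium with 2 µM PPZ, so the mock groups also carried PPZ. The sources used here do not give the construct behind the name RiD-BRI1/BAK1, its promoter, whether 1 line or several were used, or what the library numbers 1 and 2 stand for.

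Brassinosteroids are growth-promoting steroid hormones of plants. The hormone is sensed at the cell surface by the receptor kinase BRI1, which then pairs with the co-receptor kinase BAK1, and a phosphorylation relay inside the cell alters the activity of the transcription factors BZR1 and BES1. Rapamycin is a small molecule that binds the protein FKBP and the FRB domain of the kinase TOR at once, and fused FKBP and FRB domains are widely used to bring proteins together on demand. By the title of the study, the question was whether such chemical control can be placed on a plant receptor kinase. In seedlings grown in darkness the brassinosteroid pathway is best known for hypocotyl elongation and for repression of its own hormone synthesis.

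The values are normalized counts summed over the transcripts of a locus, and limma was run on log2(value + 1) for the 23285 loci that reached 1 normalized count in 2 libraries or more. A log2 change is rapamycin minus mock, and the added 1 makes it understate changes of loci near 0. A locus is called higher or lower where the Benjamini-Hochberg adjusted p over all tested loci is under 0.05. The 4 libraries of RiD mock and RiD rapamycin summed to between 23400000 and 26987600 normalized counts. The value of 1 read, taken from the step between low values, gave about 19200000 and 19400000 reads for the libraries numbered 1 and 29300000 and 33900000 for those numbered 2. BRI1 (AT4G39400) was at 8509 and 12206 normalized counts in RiD mock 1 and 2 and at 7122 and 10379.8 in RiD rapamycin 1 and 2, and BAK1 (AT4G33430) was at 5116 and 4908 in mock and at 5808 and 5979.7 with rapamycin. The log2 change was -0.25 (SE 0.30, adjusted p = 0.626) for BRI1 and 0.23 (SE 0.13, adjusted p = 0.252) for BAK1, and neither was called, though the fit with the replicate number as a block called BAK1 higher (adjusted p = 0.0337). Etiolation markers were abundant, with PHYA, the light receptor of dark-grown seedlings, at 27773 and 34736 in mock and 29699.9 and 34974 in rapamycin. PORA, which makes chlorophyllide and is most abundant in dark-grown seedlings, was at 53457 and 46955 in mock and at 24115 and 18014 with rapamycin (log2 change -1.27, SE 0.18, adjusted p = 0.00196), so its transcripts stayed abundant while they fell. These are bulk samples of whole seedlings, in which fewer cells of a type and less RNA per cell cannot be told apart.

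Rapamycin changed a large share of the tested transcriptome of RiD. Of 23285 loci 5120 were called, which is 22.0%, with 2857 higher (12.3%) and 2263 lower (9.72%). Of these, 968 were at least 4-fold higher and 592 at least 4-fold lower, and 204 and 110 passed 16-fold. Both libraries of one group lay beyond both of the other at 13127 loci (56.4%). All 5120 moved the same way in the pair of libraries numbered 1 and in the pair numbered 2. So did 19063 of all 23285 tested loci, and the call itself favours loci that do. The calls were spread over all levels of abundance. Of the 5821 loci with the lowest means 568 rose and 496 fell, and of the 5821 with the highest 818 rose and 502 fell. In wild-type Col-0 the same dose of rapamycin gave 0 called loci of 23285 by limma, with 557 at an unadjusted p under 0.05 and 43 called with the replicate number as a block. The median size of the log2 change over the 5120 loci was 1.35 in RiD and 0.14 in Col-0, and 88.1% of them lay within 0.5 of 0 in Col-0. BCB, described next, was at 35.3 and 15.4 normalized counts in Col-0 mock and 36.3 and 18.8 in Col-0 rapamycin, and AAP2 was at 3309 and 2806 in Col-0 mock and at 2826 and 2650.1 in Col-0 rapamycin. The difference between the RiD and the Col-0 change was itself called at 2341 loci (10.1%), of which 2300 were among the 5120. All 2300 had the sign of the RiD change, which the selection favours because the difference contains that change. That count of 2341 was 1225 to 1529 when any 1 of the 8 libraries of these 4 groups was left out.

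The libraries numbered alike deviated together, and with the number as a block 11215 loci (48.2%) were called, among them 5100 of the 5120. Without RiD mock 1 the count was 3018, without RiD rapamycin 1 it was 3398, and without RiD rapamycin 2 it was 2945. The fit without the block counts the shift shared by libraries numbered alike as spread. A locus that it leaves uncalled may therefore still have changed. Loci below are described as having risen or fallen by the fit without the block. Unless a sentence says otherwise, those given by name kept the call whichever of the 10 libraries was left out. Counts over a list or family also include loci that lost it. Counts with the block stand beside the 48.2% of all loci that it called, 5604 higher and 5611 lower. Counts without a library of RiD mock or RiD rapamycin stand beside a lower count over all loci too, as that group then held 1 library.

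**Figure D1:**
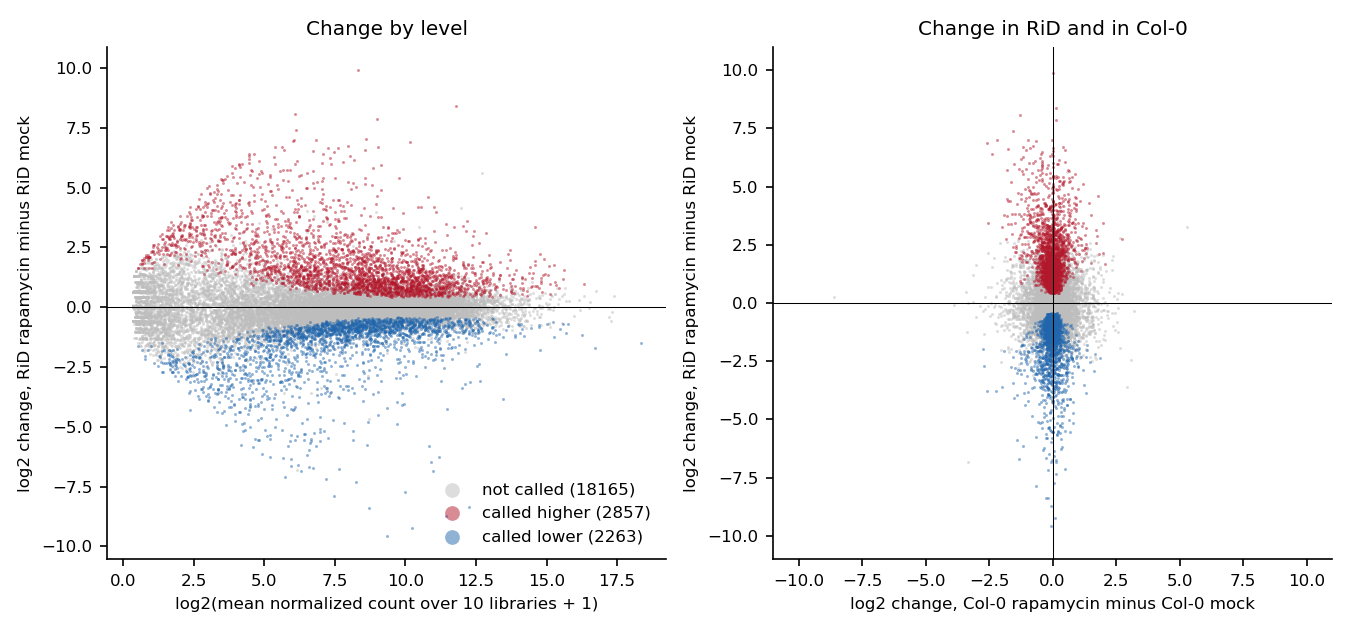
Left, the log2 change of RiD rapamycin against RiD mock by the log2 of the mean normalized count plus 1 over the 10 libraries, 1 point per tested locus. Right, the same change by the change of Col-0 rapamycin against Col-0 mock. Red and blue points are the 2857 loci called higher and the 2263 called lower in RiD, and in the right panel these form a vertical band around 0 of the Col-0 axis.

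Among the loci with the largest changes were genes of the cell wall, of hormone metabolism and of transport. BCB (AT5G20230), a blue copper-binding protein of the cell surface, was at 25.8 and 42.3 normalized counts in the mock libraries and at 12784 and 10267 in the rapamycin libraries (log2 change 8.39, SE 0.47, adjusted p = 3.19e-05). PELPK1 (AT5G09530), a wall protein with a repeated proline-rich motif, was at 45.2 and 23.2 in mock and at 3908 and 4023 with rapamycin (log2 change 6.89, SE 0.29, adjusted p = 1.23e-05). Its neighbour on chromosome 5, PELPK2 (AT5G09520), was at 1.29 and 0 in mock and at 247 and 150.3 with rapamycin, 375-fold higher, with a 95% counting interval of 66.9 to 14849.9. In all 3 genes both rapamycin libraries lay above both mock libraries, with no value in between. The counting intervals are exact binomial ones and cover counting error only. CYP78A10 (AT1G74110), a cytochrome P450, was at 0 and 0.801 in mock and at 1149 and 1433 with rapamycin, 2699.8-fold higher, with a 95% counting interval of 484 to 106678. The laccase gene LAC5 (AT2G40370) was at 0 and 0.8001 in mock and at 171 and 293 with rapamycin, 506-fold higher, with a 95% counting interval of 90.4 to 20024. RGF9 (AT5G64770), which encodes a secreted peptide of the root meristem growth factor family, was at 1.29 and 0 in mock and at 211 and 118 with rapamycin, 306-fold higher, with a 95% counting interval of 54.5 to 12125. All 3 were thus at most at the level of 1 read per library without rapamycin. JRG21 (AT3G55970), a jasmonate-responsive oxygenase gene, was at 6.45 and 15.998 in mock and at 996 and 1173 with rapamycin (log2 change 6.59, SE 0.43, adjusted p = 5.24e-05), and GSTU12 (AT1G69920), a glutathione transferase, was at 2.58 and 0 in mock and at 206 and 154 with rapamycin, 174-fold higher, with a 95% counting interval of 47.9 to 1447.

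The largest falls included a transporter and several regulators that were well expressed in mock. AAP2 (AT5G09220), an amino acid permease, was at 3462 and 3256 normalized counts in mock and at 44.5 and 29.8 with rapamycin (log2 change -6.49, SE 0.20, adjusted p = 2.32e-06). MYB55 (AT4G01680), a MYB transcription factor, was at 1088 and 1361 in mock and at 4.17 and 5.35 with rapamycin (log2 change -7.73, SE 0.32, adjusted p = 1.23e-05). HB4 (AT2G44910), a homeodomain-leucine zipper factor, was at 484 and 362 in mock and at 11.1 and 3.82 with rapamycin (log2 change -5.78, SE 0.38, adjusted p = 5.68e-05). In each of these both rapamycin libraries lay far below both mock libraries. PUB29 (AT3G18710), a U-box ubiquitin ligase, was at 228 and 139 in mock and at 5.56 and 1.53 with rapamycin (log2 change -5.46, SE 0.43, adjusted p = 0.000126). The signalling peptide gene CLE2 (AT4G18510) was at 122 and 105 in mock and at 0 and 1.53 with rapamycin, 113-fold lower, with a 95% counting interval of 30.9 to 939, and LTP6 (AT3G08770), a lipid transfer protein gene, was at 259 and 169 in mock and at 2.78 and 0 with rapamycin, 206-fold lower, with a 95% counting interval of 56.7 to 1707. The arabinogalactan protein gene AGP30 (AT2G33790) was at 148 and 127 in mock and 0 in both rapamycin libraries, at least 42.6-fold lower where 0 is replaced by 3 reads in each library and the group averaged. By the same floor NPY4 (AT2G23050), from the NPH3 family, went from 76.1 and 73.6 to 0 in both, at least 23.2-fold lower, and the peptide gene IDL3 (AT5G09805) from 73.3 and 40.04 to 0, at least 17.5-fold lower. BGLU18 (AT1G52400), a beta-glucosidase of endoplasmic reticulum bodies, was at 101 and 186 in mock and at 0 and 3.82 with rapamycin (log2 change -5.97, SE 0.77, adjusted p = 0.00124).

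**Figure D2:**
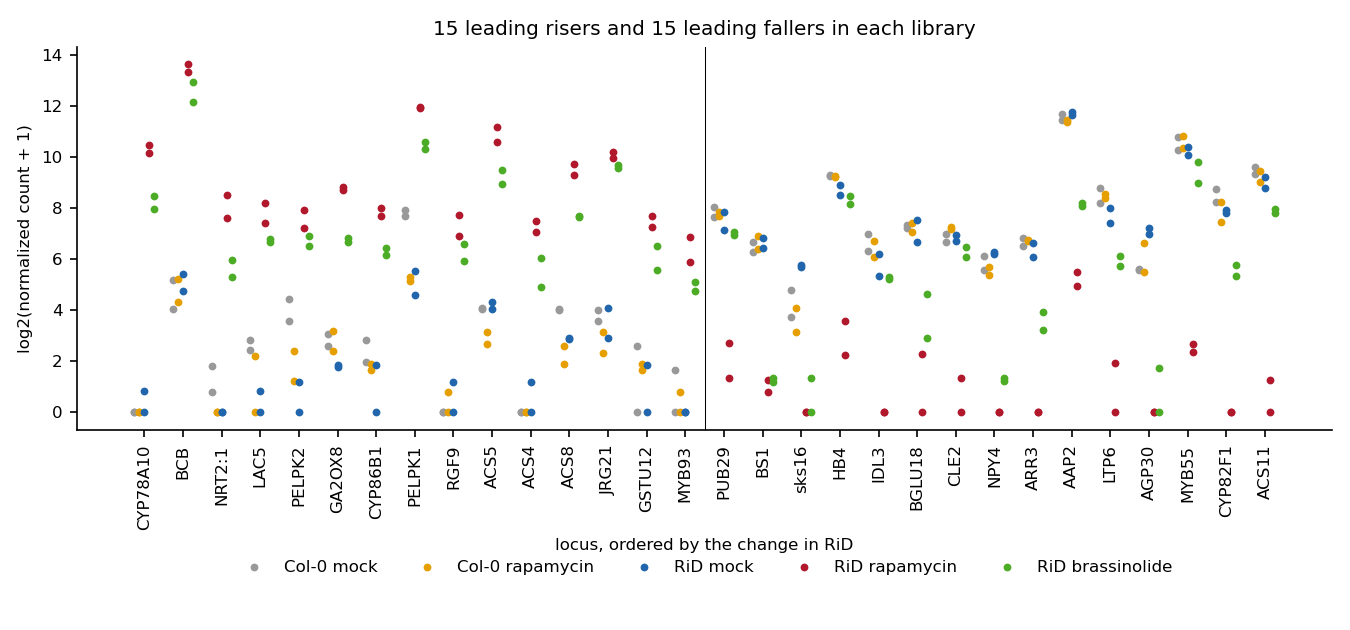
The log2 of the normalized count plus 1 in each of the 10 libraries for the 15 loci with the largest rise and the 15 with the largest fall in RiD, leaving out brassinosteroid synthesis and SAUR genes. Points are single libraries and colours the 5 groups. RiD rapamycin points lie apart from RiD mock points at every locus, and both Col-0 groups lie nearer to RiD mock. The loci were chosen by their called change in RiD, which favours that gap.

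By the change of the group mean in normalized counts, a measure that favours abundant and long transcripts, genes of carbon and nitrogen metabolism were among those with the largest rises. ASN1 (AT3G47340), an asparagine synthetase induced in darkness, was at 63551 and 73262 normalized counts in mock and at 131806 and 138808 with rapamycin (log2 change 0.99, SE 0.16, adjusted p = 0.00345). DIN10 (AT5G20250), related to raffinose synthases, was at 27924 and 37245 in mock and at 78993 and 113121 with rapamycin (log2 change 1.55, SE 0.23, adjusted p = 0.00242), and STP1 (AT1G11260), a proton-coupled monosaccharide importer, at 14186 and 13179 in mock and at 62973 and 64700.2 with rapamycin (log2 change 2.22, SE 0.18, adjusted p = 0.000157). Both rapamycin libraries exceeded both mock libraries in all 3. The peroxidase gene AT2G37130 was at 20821 and 20594 in mock and at 63285 and 76437 with rapamycin (log2 change 1.75, SE 0.16, adjusted p = 0.000249), and the dehydrin ERD14 (AT1G76180) at 22369.7 and 14819.7 in mock and at 67459 and 52840.4 with rapamycin (log2 change 1.71, SE 0.33, adjusted p = 0.00747). Among abundant transcripts that fell, XTH15 (AT4G14130), a xyloglucan endotransglucosylase of the cell wall, was at 111721 and 134282 in mock and at 32436 and 42602 with rapamycin (log2 change -1.72, SE 0.23, adjusted p = 0.00143). PYK10 (AT3G09260), a beta-glucosidase, was at 54589 and 59049.7 in mock and at 28561 and 31201 with rapamycin (log2 change -0.93, SE 0.17, adjusted p = 0.00644). The light-harvesting gene CAB1 (AT1G29930) was at 559175 and 285963 in mock and at 204513 and 96370.1 with rapamycin. Both groups were spread widely without overlapping, and its adjusted p of 0.0437 rose above 0.05 without any of 6 libraries, to between 0.0602 and 0.0701 without a library of Col-0 rapamycin or RiD brassinolide, 0.22 without RiD mock 1 and 0.229 without RiD rapamycin 2.

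The enzymes that make the ethylene precursor changed in opposite directions within 1 gene family. Ethylene is made from the precursor ACC by ACC synthases, encoded by ACS genes, and ACC oxidases, and ACC synthase usually sets the rate. ACS11 (AT4G08040) was at 604 and 442 normalized counts in mock and at 1.39 and 0 with rapamycin, 1022-fold lower, with a 95% counting interval of 183 to 40408. ACS5 (AT5G65800) was at 15.5 and 19.2 in mock and at 1569.6 and 2329 with rapamycin (log2 change 6.71, SE 0.30, adjusted p = 1.64e-05), and ACS8 (AT4G37770) at 6.45 and 6.402 in mock and at 634 and 857 with rapamycin (log2 change 6.64, SE 0.30, adjusted p = 1.64e-05). ACS11 transcripts were thus all but absent with rapamycin, while ACS5 and ACS8 were low in mock and high with rapamycin in both libraries. ACS4 (AT2G22810) was at 1.29 and 0 in mock and at 178 and 133 with rapamycin, 302-fold higher, with a 95% counting interval of 53.8 to 11967. ACS6 (AT4G11280) was at 76.1 and 54.4 in mock and at 166 and 173 with rapamycin (log2 change 1.38, SE 0.21, adjusted p = 0.00247). ACS9 rose as well, from 0 and 0.801 to 5.57 and 9.19, and its adjusted p of 0.00724 rose above 0.05 without RiD mock 1 (0.0535) or RiD rapamycin 2 (0.0601). ACS2 was at 21.95 and 18.4 in mock and 47.3 and 34.4 with rapamycin and ACS7 at 18.1 and 23.2 in mock and 15.3 and 16.8 with rapamycin, and neither was called, but the block called ACS2 higher (adjusted p = 0.0431). Of 25 tested genes of ethylene synthesis and signalling 6 rose and 2 fell, or 32% called beside 22.0% of all loci. With the block 11 were higher and 3 lower, where the block called 48.2% of all loci. The median log2 change of the 25 was 0.23 beside -0.03 over all loci. The receptor gene ETR2 rose from 1161 and 991 to 1885 and 1900.5 (log2 change 0.82, SE 0.15, adjusted p = 0.00619), while the central regulators EIN2 at 5680.4 and 8218 in mock and 6649 and 9766 with rapamycin and EIN3 at 5288 and 8079 in mock and 7046 and 10802 with rapamycin were not called. The block called EIN3 higher (adjusted p = 0.00289).

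The 250 bases before the annotated start of ACS11 and ACS5 are shown because ACS11 fell and ACS5 rose, both by large changes, and those of the suberin exporter gene ABCG6 and of the ribosomal protein gene AT2G37600 because 2 gene groups described further on hold them. They are RefSeq sequence of TAIR10.1, written along the gene's strand, and capitals mark matches to short motifs on either strand. The motifs were the brassinosteroid response element (CGTGCG or CGTGTG), the W-box bound by WRKY factors (TTGACC or TTGACT), the telo-box (AAACCCTA), the site II element (TGGGCC) and the G-box (CACGTG).
ACS11, chr4:4886712-4886961, plus strand: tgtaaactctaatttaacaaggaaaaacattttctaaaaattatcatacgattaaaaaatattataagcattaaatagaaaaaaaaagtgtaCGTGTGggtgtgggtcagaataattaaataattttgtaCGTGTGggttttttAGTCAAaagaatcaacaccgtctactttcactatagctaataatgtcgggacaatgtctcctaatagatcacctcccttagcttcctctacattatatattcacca
ACS5, chr5:26332813-26333062, minus strand: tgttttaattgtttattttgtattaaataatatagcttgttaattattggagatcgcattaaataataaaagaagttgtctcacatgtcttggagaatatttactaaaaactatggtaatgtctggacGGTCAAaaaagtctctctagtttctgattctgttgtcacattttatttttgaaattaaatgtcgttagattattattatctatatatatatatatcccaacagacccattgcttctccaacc
ABCG6, chr5:4370442-4370691, plus strand: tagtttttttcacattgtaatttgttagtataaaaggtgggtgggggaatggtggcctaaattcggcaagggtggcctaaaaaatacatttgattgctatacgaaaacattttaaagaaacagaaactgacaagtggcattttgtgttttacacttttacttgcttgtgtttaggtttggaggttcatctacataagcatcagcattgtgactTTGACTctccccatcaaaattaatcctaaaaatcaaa
AT2G37600, chr2:15775375-15775624, minus strand: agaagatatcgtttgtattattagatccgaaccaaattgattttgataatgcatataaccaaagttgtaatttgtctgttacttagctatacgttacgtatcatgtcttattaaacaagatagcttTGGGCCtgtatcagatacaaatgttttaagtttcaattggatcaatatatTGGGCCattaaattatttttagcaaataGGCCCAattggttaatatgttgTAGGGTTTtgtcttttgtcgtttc
ACS11 held the brassinosteroid response element at 158 and at 120 bases before its start and a W-box at 106 bases. ACS5 held a W-box at 122 bases and ABCG6 at 37 bases. AT2G37600 held site II elements at 124, 74 and 46 bases and a telo-box at 24 bases.

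Over the 22093 tested loci with such a region, 6.96% held the brassinosteroid response element. The share was 9.73% among loci called lower, 69 of 576 among those at least 4-fold lower, and 168 of 2798 among those called higher. The W-box was in 28.5% of all regions, in 36.5% of those called higher, and in 41.6% (390 of 937) of those at least 4-fold higher. It was in 23.9% of those called lower and in 27.3% of those at least 4-fold lower. The site II element was in 15.5% of all, 6.54% of those called higher and 17.1% of those called lower. Among loci at least 4-fold higher and at least 4-fold lower it was in 5.02% and 6.25%. The G-box was in 7.33% of all, 6.33% of those called higher and 8.07% of those called lower. A match describes letters in this window and shows no binding.

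Genes that build the suberin barrier of roots rose together and by large factors. Suberin is a polyester of fatty acids, glycerol and phenolics laid down in endodermal walls, where it limits the passage of water and solutes. Of 19 genes, all tested, 16 rose and 1 fell, or 89.5% called beside 22.0% of all loci. Their median log2 change was 3.15 beside -0.03 over all loci. Among the synthesis enzymes the acyltransferase gene GPAT5 was at 3.87 and 1.601 normalized counts in mock and at 259 and 226 with rapamycin (log2 change 6.09, SE 0.36, adjusted p = 3.67e-05), and the fatty acid hydroxylase CYP86A1 at 9.03 and 4.001 in mock and at 413 and 512 with rapamycin (log2 change 6.02, SE 0.60, adjusted p = 0.000361). CYP86B1 (AT5G23190), which acts on very long chains, was at 2.58 and 0 in mock and at 256 and 209.6 with rapamycin, 229-fold higher, with a 95% counting interval of 63.03 to 1897. The values in both mock libraries were below 10 in all 3. Of the reductases that make suberin alcohols, FAR4 rose from 6.45 and 8.801 to 79.3 and 71.1 and FAR5 (AT3G44550) from 0 and 0.801 to 83.6 and 101, 192-fold higher, with a 95% counting interval of 34.1 to 7622. FAR1 (AT5G22500), the third reductase of this group, went the other way, from 12098 and 18296 to 3065 and 4846 (log2 change -1.95, SE 0.33, adjusted p = 0.00449). The exporter ABCG6 (AT5G13580), whose upstream sequence is given above, rose from 10.3 and 1.601 to 377 and 546 (log2 change 6.39, SE 0.68, adjusted p = 0.000482). ABCG2 and ABCG20, exporters of the same subfamily, rose from 1.29 and 2.402 to 117 and 122 and from 6.45 and 2.402 to 111 and 146. RWP1 (AT5G41040), the feruloyl transferase of suberin, was already present in mock at 232 and 204 and reached 1446 and 1501 (log2 change 2.75, SE 0.17, adjusted p = 3.93e-05).

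The transcription factors tied to suberin did not all move. MYB93 (AT1G34670) was at 0 in both mock libraries and at 58.5 and 118 with rapamycin, at least 28.2-fold higher, and MYB53 rose from 3.87 and 4.797 to 29.2 and 26.8. MYB9, MYB41 and MYB107 were called higher as well, but lost the call when 1 library of RiD mock or RiD rapamycin was left out. For MYB9 the adjusted p rose to between 0.054 and 0.145 without each of the 4, for MYB41 to between 0.053 and 0.0753 without 3 of them (RiD mock 1 and both of RiD rapamycin), and for MYB107 to 0.0539 without RiD mock 1 and 0.0608 without RiD rapamycin 2. MYB92 stood at 157 and 243 in mock and 166 and 228 with rapamycin and was not called. At 15 of the 19 loci the RiD change differed from the Col-0 change in the test of that difference, beside 10.1% of all loci. Of the 19 upstream regions 10 held a W-box, 52.6% beside 28.5% of all regions.

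The Casparian strip, the lignin band that seals endodermal cells to each other, followed with smaller steps. Of its tested genes 66.7% were called, beside 22.0% of all loci. Of 12 genes 8 rose and 0 fell, the same counts whichever library was left out, and the median log2 change was 1.35. CASP genes, whose membrane proteins mark the site of the strip, rose, among them CASP5 (AT5G15290) from 496 and 563 to 1972 and 2918 (log2 change 2.18, SE 0.30, adjusted p = 0.00156) and CASP4 (AT5G06200) from 273 and 209 to 921 and 768 (log2 change 1.81, SE 0.24, adjusted p = 0.00144). ESB1, a dirigent-domain protein needed for the lignin, rose from 3259 and 2194 to 8718 and 7888, and PER64, a peroxidase of the strip, from 1363 and 1220.2 to 2413 and 2636. MYB36, the factor that switches on these genes, rose from 396 and 389 to 751 and 902 (log2 change 1.07, SE 0.16, adjusted p = 0.00225). The identity factors further upstream did not change by the test, with SHR at 1031 and 746 in mock and 1048 and 935 with rapamycin and SCR at 1299.5 and 1588 in mock and 1037 and 1449 with rapamycin, nor did the receptor kinase GSO1 at 1305 and 1511 in mock and 1268 and 1625 with rapamycin.

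Among markers of other root cells, those of root hairs and of the root tip went down in sum, and none of xylem was called. The summed level of 4 root hair markers was 98.0 and 88.7 normalized counts in mock and 11.1 and 13.8 with rapamycin, and RHD6, EXPA7 and SHV2 of these 4 fell. The summed level of the root tip markers PLT1 and PLT2 was 33.5 and 80.8 in mock and 2.78 and 5.35 with rapamycin, with PLT2 at 0 in both rapamycin libraries. PLT2 was called lower in all fits that left out a library, and PLT1 (adjusted p = 0.0456) was called in 2 of the 10. The 4 xylem markers summed to 1203 and 1589 in mock and 1115 and 1216 with rapamycin, and none was called, with 0 at an unadjusted p under 0.05 and 0 with the block. The part of root composition in the suberin and Casparian strip values was not tested.

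**Figure D3:**
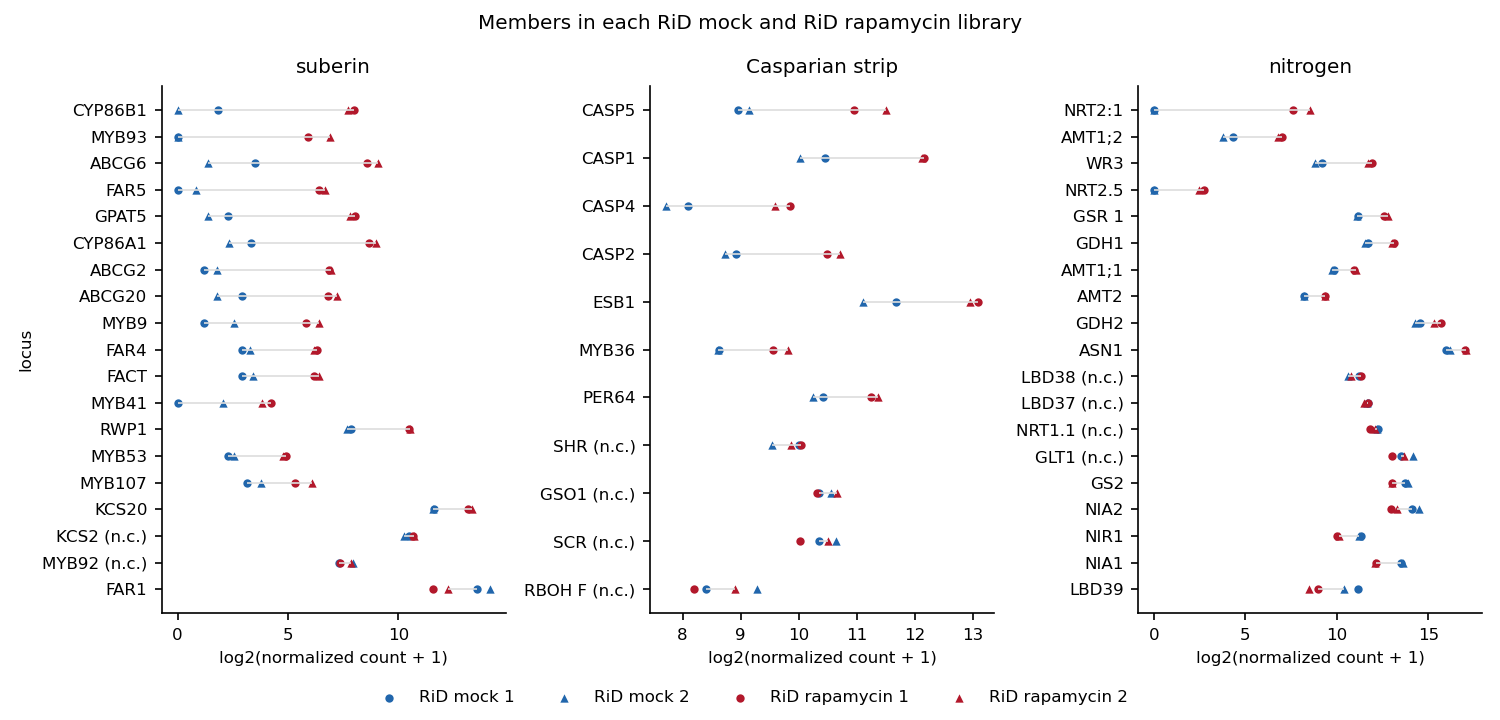
The log2 of the normalized count plus 1 of tested members of the suberin, Casparian strip and nitrogen lists, leaving out 1 of the Casparian strip list, in RiD mock (blue) and RiD rapamycin (red), with circles for libraries numbered 1 and triangles for those numbered 2. Loci not called are marked n.c. Grey lines run from the lower mock value to the higher rapamycin value, and most suberin members start near 0.

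Wax and cutin genes of the shoot surface rose too, with 63.2% of those tested called beside 22.0% of all loci. Of 19 tested genes 12 rose and 0 fell, with a median log2 change of 0.79, and 15 rose with the block and 8 to 11 in the fits that left out 1 library. KCS6, which elongates wax precursors, rose from 6784 and 6584 normalized counts to 12489 and 13465 (log2 change 0.96, SE 0.14, adjusted p = 0.00181) and KCS1 from 4544 and 3568 to 8835 and 8807 (log2 change 1.13, SE 0.16, adjusted p = 0.00161). The cutin acyltransferase gene GPAT6 (AT2G38110) was at 14.2 and 10.4 in mock and at 147 and 130.04 with rapamycin (log2 change 3.41, SE 0.32, adjusted p = 0.000255), and CER4 (AT4G33790), an alcohol-forming reductase, at 9.03 and 1.6005 in mock and at 76.5 and 92.5 with rapamycin (log2 change 4.06, SE 0.64, adjusted p = 0.00299). LTPG1, a lipid carrier at the surface, rose from 5216 and 3909 to 11750.00000 and 9819 (log2 change 1.25, SE 0.19, adjusted p = 0.00236), as did the wax regulator MYB94, from 222 and 213 to 491 and 589.6. CER1, of alkane formation, at 3256 and 4671 in mock and 2799.99 and 5157 with rapamycin, and the exporter gene ABCG11, at 3083 and 3820.1 in mock and 4483 and 5811 with rapamycin, were not called, and the block called ABCG11 higher (adjusted p = 0.000163).

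Nitrogen genes split by function. Of 19 tested genes 10 rose and 5 fell, or 78.9% called beside 22.0% of all loci. The median log2 change was 0.99, or 0.70 with loci at 0 in a group set to the floor of 3 reads. High-affinity uptake rose. NRT2:1 (AT1G08090), a root nitrate transporter, was at 0 in both mock libraries and at 193 and 368 normalized counts with rapamycin, at least 89.5-fold higher. WR3 (AT5G50200), which is NRT3.1, the partner protein that NRT2 transporters need, was at 574 and 449.8 in mock and at 3857 and 3388 with rapamycin (log2 change 2.83, SE 0.22, adjusted p = 0.000124). The ammonium transporter genes AMT1;2 at 19.4 and 12.8 in mock and 128 and 111 with rapamycin, AMT1;1 at 928 and 847 in mock and 1977 and 2086 with rapamycin, and AMT2 at 295 and 294 in mock and 647 and 659 with rapamycin all rose. Nitrate reduction fell. The nitrate reductase gene NIA1 went from 11866 and 12364 to 4439 and 4388 (log2 change -1.46, SE 0.16, adjusted p = 0.000474), and NIR1, nitrite reductase, from 2552 and 2410.3 to 1035 and 1116 (log2 change -1.21, SE 0.14, adjusted p = 0.000634). NIA2, the other nitrate reductase, went from 17474 and 23158 to 7987 and 9847 (log2 change -1.18, SE 0.24, adjusted p = 0.00942), and lost the call without RiD mock 2 (adjusted p = 0.057) or RiD rapamycin 1 (0.059).

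Assimilation and recycling of ammonium went in both directions. The cytosolic glutamine synthetase gene listed as GSR 1 rose from 2323 and 2169 to 6000.4 and 7067 (log2 change 1.54, SE 0.15, adjusted p = 0.000329), while GS2, the plastid enzyme, was at 13385 and 15045 in mock and at 8174 and 8304 with rapamycin, with an adjusted p of 0.0153 that rose above 0.05 without RiD mock 2 (0.0805), RiD rapamycin 1 (0.0669) or RiD rapamycin 2 (0.0685). Glutamate dehydrogenase GDH1, which releases ammonium from glutamate, rose from 3296 and 3017 to 9023 and 8172 (log2 change 1.44, SE 0.19, adjusted p = 0.0014). LBD39, a repressor of nitrate-responsive genes, fell from 2279 and 1328 to 505 and 361 (log2 change -2.02, SE 0.33, adjusted p = 0.00383). Its relatives LBD37 at 3385 and 3198 in mock and 3309 and 2828 with rapamycin and LBD38 at 2373 and 1538 in mock and 2556 and 1758 with rapamycin were not called, and neither was the nitrate sensor and transporter NRT1.1, at 4906 and 4678 in mock and 3647 and 4334 with rapamycin. The RiD change differed from the Col-0 change at 11 of the 19, beside 10.1% of all loci.

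Of the other mineral nutrients, phosphate genes leaned upward. Of 15 tested 7 rose and 1 fell, or 53.3% called beside 22.0% of all loci. Of the 15, 12 had a log2 change above 0, and the median was 0.90. The transporter gene PHT1;4 was called lower, but lost the call without any 1 of the 4 libraries of RiD mock and rapamycin. Its log2 change in those fits lay between -0.66 and -0.54. MGDC (AT2G11810), which makes galactolipids that replace phospholipids, rose from 5.16 and 4.805 normalized counts to 86.2 and 122 (log2 change 4.11, SE 0.54, adjusted p = 0.00131), SQD2, of sulfolipid synthesis, from 303 and 259 to 749 and 737, and the acid phosphatase PAP17 from 332 and 335 to 1061 and 1520.3 (log2 change 1.93, SE 0.20, adjusted p = 0.000384). The phosphate sensor SPX1 rose from 153 and 108 to 520.1 and 424 and the uptake transporter PHT1;1 from 1443 and 1454 to 3657 and 4472, while their regulator PHR1 was at 1439.9 and 1884 in mock and 1557 and 1817 with rapamycin and was not called. In sulfur, 2 of 13 rose and 1 fell (6 and 2 with the block), or 23.1% called beside 22.0% of all loci. The sulfate transporter SULTR2;1 (AT5G10180) went from 3886 and 5497 to 219.9 and 267 (log2 change -4.25, SE 0.23, adjusted p = 2.85e-05). In iron, 1 of 19 rose and 4 fell, or 26.3% called beside 22.0% of all loci, and the 1 higher gene was not called without RiD mock 1, RiD mock 2 or RiD rapamycin 1. Among those that fell were the nicotianamine synthase genes NAS4, from 94.2 and 67.95 to 5.56 and 1.53, and NAS1, from 43.9 and 47.98 to 9.74 and 10.7. The iron uptake transporter IRT1, at 321 and 546 in mock and 481 and 408 with rapamycin, was not called.

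Sugar transporters rose at several membranes. Of 24 genes of sugar transport and metabolism 9 rose and 2 fell, or 45.8% called beside 22.0% of all loci. Their median log2 change was 0.48, while the block gave 15 and 3. Of those that fell, SWEET11 lost the call in all 10 fits that left out a library and TPS5 in 3. SWEET2 (AT3G14770), a vacuolar sugar carrier, was at 263 and 212 normalized counts in mock and at 6448 and 5174 with rapamycin (log2 change 4.61, SE 0.39, adjusted p = 0.000175). SWEET17 (AT4G15920), a vacuolar fructose carrier, was at 107 and 101 in mock and at 791 and 706 with rapamycin (log2 change 2.84, SE 0.20, adjusted p = 7.22e-05). STP4, a plasma membrane hexose importer, rose from 3053 and 2909.8 to 10159 and 10136, and SUC1, a sucrose importer, from 930.3 and 893 to 2514 and 2558. The cell wall invertase gene ATBFRUCT1 rose from 1871 and 2112 to 5936 and 6957 (log2 change 1.69, SE 0.20, adjusted p = 0.000847), and TPS11, of the trehalose phosphate synthase family, from 4416 and 5599 to 13065 and 16726. None of the 6 sucrose synthase genes SUS1 to SUS6 was called.

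Several genes of amino acid breakdown rose. Of 15 genes 8 rose and 0 fell, or 53.3% called beside 22.0% of all loci, with a median log2 change of 1.004, against 12 and 1 with the block and 5 and 0 with quantile normalization. The proline oxidase gene ERD5 (AT3G30775) rose from 5663 and 6653 normalized counts to 26916 and 30014 (log2 change 2.21, SE 0.17, adjusted p = 0.000111), and its homologue AT5G38710 from 2.58 and 17.61 to 678 and 1119.8 (log2 change 6.74, SE 0.78, adjusted p = 0.000731). In the branched-chain pathway BCE2 rose from 4938 and 5450.1 to 11062 and 11989.8, MCCB from 10225 and 11328 to 22102 and 21267, and the aminotransferase BCAT-2 from 19792 and 24379.5 to 41622 and 46633. ALDH12A1, the step after proline oxidase, was at 1223 and 1616 in mock and 1008 and 1238 with rapamycin and was not called, but the block called it lower (adjusted p = 0.0177). Mobilisation of seed oil showed 6 of 19 higher and 0 lower, with the lipase gene SDP1 at 2304 and 2602 in mock and 4351 and 5081 with rapamycin (log2 change 0.94, SE 0.14, adjusted p = 0.00267), but the block gave 10, and leaving out RiD mock 1 or RiD rapamycin 2 gave 2. Beside these, the seed storage markers CRA1 and CRU3 summed to 34.9 and 4860 normalized counts in RiD mock 1 and 2 and to 6934 and 22920 in RiD rapamycin 1 and 2, so that libraries of 1 group differed widely from each other. Neither gene was called. Their part in the seed oil counts, with 31.6% called beside 22.0% of all loci, was not tested.

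Water channels rose in part, with 52.4% of those tested called higher or lower beside 22.0% of all loci. Of 21 aquaporin genes 10 rose and 1 fell, with a median log2 change of 0.61, and 16 rose with the block, while 6 rose without RiD mock 1, RiD mock 2 or RiD rapamycin 2. The plasma membrane channel PIP2A (AT3G53420) was at 27018 and 22807 normalized counts in mock and at 66838 and 58109.7 with rapamycin (log2 change 1.33, SE 0.19, adjusted p = 0.00202), and PIP3 (AT4G35100) at 39229 and 31188 in mock and at 88285 and 71864 with rapamycin (log2 change 1.19, SE 0.21, adjusted p = 0.00571). The vacuolar channel TIP2;3 rose from 6283 and 4118 to 14998 and 12539.9 (log2 change 1.43, SE 0.25, adjusted p = 0.00456). PIP2;8 (AT2G16850) was the one that fell, from 208 and 206 to 54.2 and 51.2 (log2 change -1.95, SE 0.18, adjusted p = 0.000246).

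WRKY transcription factors, plant regulators of defence and senescence, were called higher in 25 of 61 tested and lower in 0. That is 41.0% beside 12.3% of all loci. With the block 39 were higher and 7 lower, and 17 to 25 were higher without 1 library, the fewest without RiD mock 1 (17) and RiD rapamycin 2 (18). WRKY60 (AT2G25000) was at 36.1 and 42.4 normalized counts in mock and at 666 and 645 with rapamycin (log2 change 4.03, SE 0.21, adjusted p = 2.77e-05), and WRKY48 at 24.5 and 47.2 in mock and at 449 and 732 with rapamycin (log2 change 4.03, SE 0.46, adjusted p = 0.000638). WRKY71 was at 0 in both mock libraries and at 45.9 and 66.6 with rapamycin. WRKY18, a partner of WRKY60, rose from 245 and 199.9 to 854 and 839.6 (log2 change 1.93, SE 0.21, adjusted p = 0.000508), and WRKY25 from 476 and 542 to 1814 and 1949.6. The lower end of the family was not called, with WRKY10 at 5.17 and 1.603 in mock and 0 and 0 with rapamycin and WRKY54 at 9.03 and 7.198 in mock and 1.39 and 3.06 with rapamycin. The block called WRKY10 lower (adjusted p = 0.0371). At 16 of the 61 the RiD change differed from the Col-0 change, beside 10.1% of all loci.

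**Figure D4:**
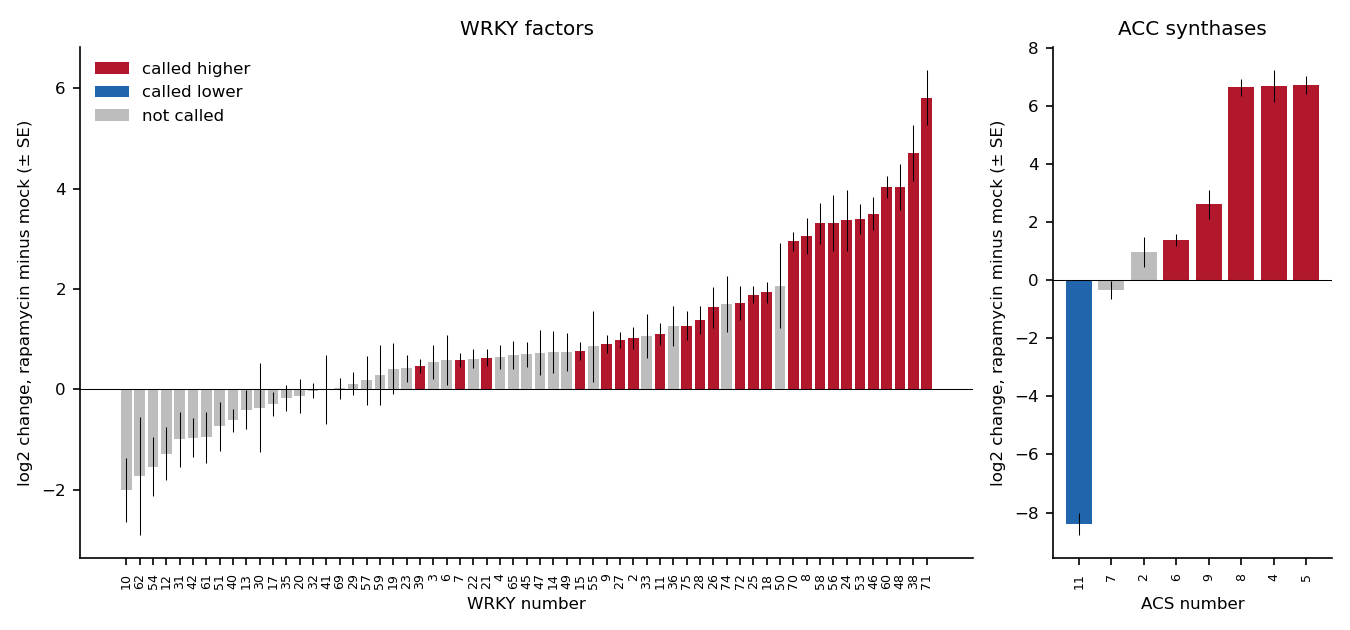
The log2 change of RiD rapamycin against RiD mock for every tested WRKY gene (left, 61 genes) and ACC synthase gene of the ethylene list (right), in order of the change. Bars start at 0 and lines are ± 1 SE of the fit. Red bars are called higher, blue lower and grey not called, and ACS11 is the one blue bar.

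Several kinases of calcium and stress signalling rose. Of 20 CIPK genes, kinases steered by calcium sensors of the CBL type, 9 rose and 2 fell, which is 45.0% higher beside 12.3% of all loci and 10% lower beside 9.72%, with 5 or 6 higher without 1 library of RiD mock or RiD rapamycin. CIPK13 (AT2G34180) was at 12.9 and 15.2 normalized counts in mock and at 314 and 271 with rapamycin (log2 change 4.29, SE 0.52, adjusted p = 0.000926), and CIPK15 at 2768 and 2518 in mock and at 8365 and 8163 with rapamycin. Of 12 MAPKKK genes, the top tier of mitogen-activated kinase cascades, 6 rose and 0 fell, which is 50% higher beside 12.3%, with 3 higher without RiD mock 2, RiD rapamycin 1 or RiD rapamycin 2. MAPKKK19 was at 15.5 and 7.99 in mock and 75.1 and 68.8 with rapamycin (log2 change 2.58, SE 0.42, adjusted p = 0.00359) and MAPKKK14 at 243 and 213 in mock and 637 and 571 with rapamycin. Of the major latex protein family, MLP43 (AT1G70890) was at 1289 and 807 in mock and at 82.01 and 45.1 with rapamycin (log2 change -4.05, SE 0.36, adjusted p = 0.000226) and MLP34 at 641 and 545 in mock and at 207 and 196 with rapamycin, while MLP329 rose from 1205 and 1222 to 3164 and 3357 (log2 change 1.42, SE 0.14, adjusted p = 0.000275).

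Auxin and cytokinin genes changed at single steps of transport, synthesis and response. Of 20 auxin transport and synthesis genes 2 rose and 6 fell, or 40% called beside 22.0% of all loci. Their median log2 change was -0.45. The block gave 12 in place of 6, and leaving out RiD mock 2 or RiD rapamycin 1 gave 2, and RiD mock 1 gave 4. The exporter ABCB19 (AT3G28860) went from 7527 and 9568 normalized counts to 2721 and 3269 (log2 change -1.51, SE 0.19, adjusted p = 0.00118) and the importer LAX3 (AT1G77690) from 1984 and 2422 to 532 and 665 (log2 change -1.88, SE 0.24, adjusted p = 0.00114). YUC3, of auxin synthesis, rose from 38.7 and 56.02 to 549.6 and 665 (log2 change 3.67, SE 0.34, adjusted p = 0.000258), and the kinase PID from 289 and 207 to 626 and 684 (log2 change 1.41, SE 0.20, adjusted p = 0.00196). Of 20 cytokinin genes 2 rose and 4 fell, or 30.0% called beside 22.0% of all loci. The block gave 4 and 10, and 0 were called higher without RiD mock 1. The synthesis gene IPT7 (AT3G23630) went from 47.7 and 43.2 to 0 in both rapamycin libraries, at least 14.1-fold lower. The type-A response regulator ARR6 (AT5G62920) went from 169 and 156 to 16.7 and 19.1 (log2 change -3.11, SE 0.20, adjusted p = 4.82e-05), and ARR3 (AT1G59940), of the same type, from 99.3 and 67.1 to 0, at least 25.7-fold lower.

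Defence hormone and glucosinolate genes were mixed. Of 26 jasmonate genes 5 rose and 4 fell, or 34.6% called beside 22.0% of all loci. The block gave 9 and 7, and leaving out RiD rapamycin 2 gave 3 and 2. The repressor JAZ6 rose from 175 and 208 normalized counts to 651 and 852 (log2 change 1.96, SE 0.18, adjusted p = 0.000226), CYP94B3, which inactivates the hormone, from 204 and 229.7 to 570.5 and 668, and AOC3, a synthesis enzyme, fell from 223 and 174 to 62.6 and 51.98 (log2 change -1.77, SE 0.29, adjusted p = 0.0039). VSP2 (AT5G24770), a vegetative storage protein, was at 21.9 and 31.99 in mock and at 1.39 and 0 with rapamycin, 57.003-fold lower, with a 95% counting interval of 9.83 to 2290.5. Of 15 salicylate genes 5 rose and 1 fell, or 40% called beside 22.0% of all loci. Only 2 were called higher without RiD mock 1, RiD rapamycin 1 or RiD rapamycin 2, and 3 without RiD mock 2. The regulator CBP60G rose from 82.6 and 84.1 to 611 and 824 (log2 change 3.07, SE 0.18, adjusted p = 3.93e-05), and PBS3, of salicylate synthesis, from 0 and 3.202 to 38.96 and 38.2, while the synthase EDS16 was at 199 and 193 in mock and 205 and 209.6 with rapamycin and was not called. Of 16 tested glucosinolate genes 1 rose and 6 fell, or 43.75% called beside 22.0% of all loci. Their median log2 change was -0.61. CYP79B2 and CYP79B3, which begin the indole branch, fell from 189.7 and 209 to 54.3 and 61.2 (log2 change -1.77, SE 0.24, adjusted p = 0.00154) and from 534 and 394 to 200.4 and 168, and their regulator MYB34 fell from 206 and 246 to 73.7 and 65.001 (log2 change -1.69, SE 0.24, adjusted p = 0.00205). CYP81F2, which modifies the indole products, rose from 34.8 and 48.8 to 255 and 244 (log2 change 2.57, SE 0.27, adjusted p = 0.000417).

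Cytosolic ribosomal protein genes leaned downward by small steps. The list held 80 loci picked by the wording of their RefSeq product names, so it need not hold the whole class. Of 75 tested genes 18 fell and 3 rose, or 28% called beside 22.0% of all loci. A log2 change below 0 was found at 62 of them, and the median was -0.69 beside -0.03 over all loci. The largest fall was 1.42 on the log2 scale. AT4G29410 was at 2252 and 1839.5 normalized counts in mock and at 1059 and 799 with rapamycin (log2 change -1.14, SE 0.18, adjusted p = 0.00324) and AT5G61170 at 2767 and 2072 in mock and at 1287 and 915 with rapamycin (log2 change -1.14, SE 0.21, adjusted p = 0.00617). AT2G37600, whose upstream sequence is given above, was at 773 and 552 in mock and at 417 and 266 with rapamycin (log2 change -0.97, SE 0.26, adjusted p = 0.0311), and lost the call without 4 libraries, with an adjusted p up to 0.173 without RiD rapamycin 2. The count of 18 depended on single libraries, as it was 2 without RiD mock 1 and 4 without RiD rapamycin 2, and the block gave 56. Ribosomal protein genes occur as near-identical copies, and the sources used here do not say how the deposited counts divide reads among copies. Of the 75 upstream regions 17 held a telo-box, 22.7% beside 3.52% of all, and 32 held a site II element, 42.7% beside 15.5%.

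Other stress and housekeeping lists differed in how many genes were called, against 12.3% of all loci higher and 9.72% lower. With the block the share over all loci was 48.2%, with 5604 higher and 5611 lower of 23285. Of 9 endoplasmic reticulum stress genes 0 were called by limma, with 0 higher and 2 lower at an unadjusted p under 0.05, and 1 higher and 3 lower with the block. Of 16 clock genes 1 rose, but 7 were higher and 2 lower with the block, and 0 were higher when any 1 of the 4 libraries of RiD mock and rapamycin was left out. Of 15 tubulins 2 rose, or 4 higher and 3 lower with the block, and 0 were called without RiD mock 1, RiD rapamycin 1 or RiD rapamycin 2. Of 9 genes of TOR and SnRK1 signalling 2 rose, and 1 was called higher without RiD mock 1 or RiD rapamycin 2. Among the latter S6K2 was at 503 and 649.9 normalized counts in mock and 1248 and 1383 with rapamycin (log2 change 1.20, SE 0.18, adjusted p = 0.00262), whereas TOR, the kinase that rapamycin inhibits in many eukaryotes, was at 1006 and 2958 in mock and 1231 and 3246 with rapamycin and FKBP12 at 4320.3 and 2471 in mock and 3356 and 1863 with rapamycin, neither called. The block called FKBP12 lower (adjusted p = 0.00759). Of 13 redox genes 3 rose and 1 fell, but 0 were called without RiD rapamycin 2. Of 11 heat shock genes 5 rose and 0 fell, which is 45.5% called, with a median log2 change of 1.02, but 1 was called without RiD mock 1 or RiD rapamycin 1.

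**Figure D5:**
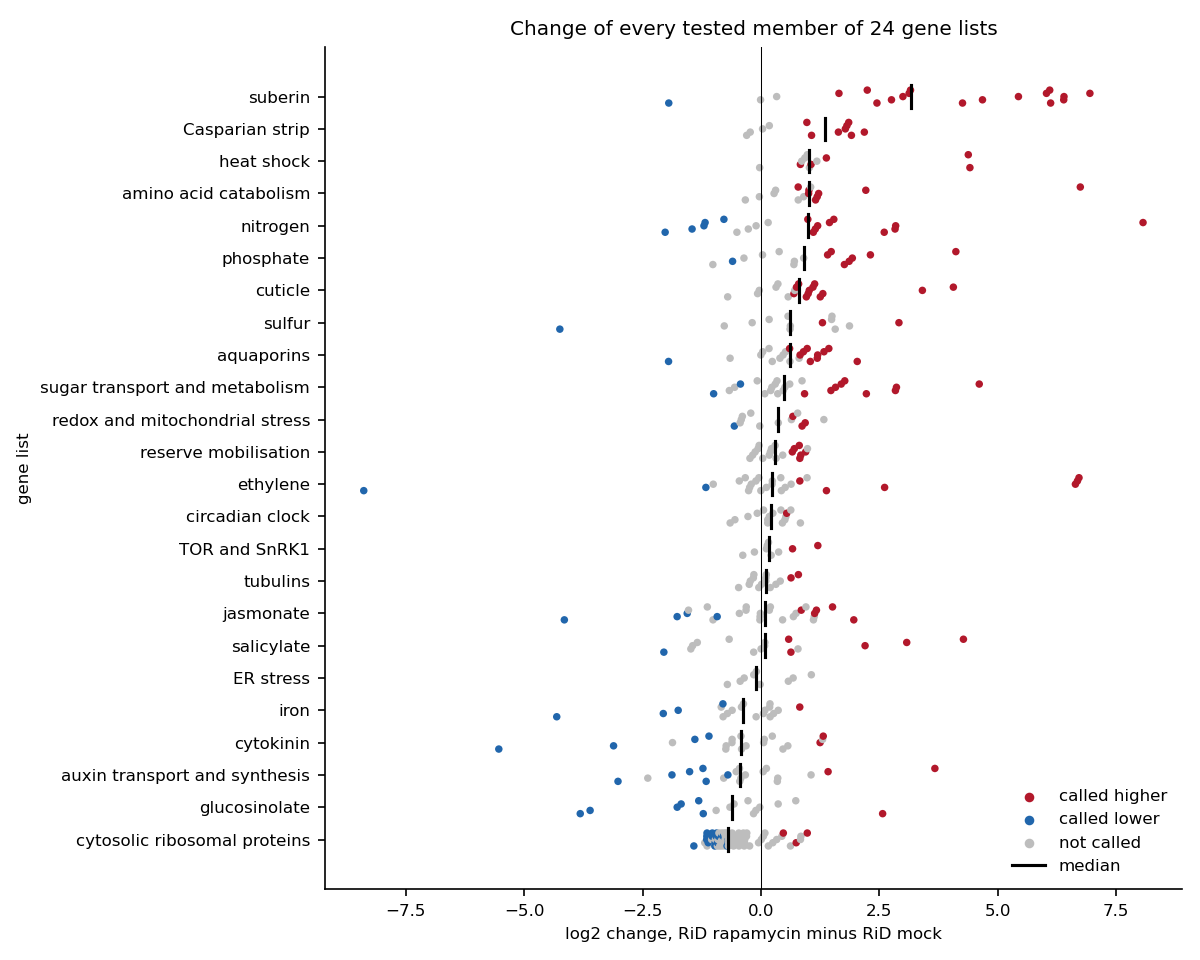
The log2 change of RiD rapamycin against RiD mock for every tested member of 24 gene lists, ordered by their medians. Each point is a locus, red where called higher, blue where called lower and grey where not called, and black bars are medians. Suberin has the highest median at 3.15 and cytosolic ribosomal proteins the lowest at -0.69.

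Brassinolide values of the leading loci are set beside those of rapamycin without a test, since both comparisons share the 2 RiD mock libraries. For BCB the log2 changes were 8.39 with rapamycin and 7.48 with brassinolide, for PELPK1 6.89 and 5.40, for ACS5 6.71 and 5.03, and for SWEET2 4.61 and 3.36. In each of these 4 both brassinolide libraries lay between the mock and the rapamycin libraries. The large falls were of both kinds. In AGP30, NPY4 and AAP2 the brassinolide values were also far below mock. AGP30 was at 0 and 2.31 normalized counts with brassinolide, against 148 and 127 in mock and 0 and 0 with rapamycin, and NPY4 at 1.32 and 1.55, against 76.1 and 73.6 in mock and 0 and 0 with rapamycin. For AAP2 the log2 changes were -6.49 with rapamycin and -3.56 with brassinolide. In HB4, MYB55 and ACS11 the brassinolide values lay closer to mock than to rapamycin on the log2 scale. HB4 was at 354 and 285 normalized counts in the brassinolide libraries, against 484 and 362 in mock and 11.1 and 3.82 with rapamycin. MYB55 was at 515 and 905, against 1088 and 1361 in mock and 4.17 and 5.35 with rapamycin, and ACS11 at 249 and 224, against 604 and 442 in mock and 1.39 and 0 with rapamycin.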

How the data were processed

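The deposited file gives the authors' normalized counts per transcript (a signal value, not whole reads) for 10 libraries of 5 groups, 2 each, and the submitters' processing notes name Salmon and DESeq2 without role or version. The sources used here do not name the genome build or annotation. In the deposited normalized counts, low values were whole multiples of 1 step, within 0.1 of a read, for at least 95% of values in 8 of 10 libraries, so depth in reads was read from the step, but no count test was run. Values of 40812 transcripts were summed to 32753 loci, and symbols of 32048 came from RefSeq's annotation of TAIR10.1. Differences were tested with limma 3.58.1 in R 4.3.3 on log2(value + 1), over loci with at least 1 in at least 2 libraries, with trended and robust moderation, 5 group means over 10 libraries (5 residual degrees of freedom) and Benjamini-Hochberg adjustment over 23285 loci. The fit was tested on simulated data.

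Whether libraries of equal number came from a shared culture is not labelled. For each of the 10 pairs of groups their deviations from the group mean had a correlation between 0.32 and 0.51. Over loci above the median level it lay between 0.69 and 0.90, and it was highest for RiD mock with RiD rapamycin. The number was therefore fitted as a block in an alternative with 4 residual degrees of freedom, while the fit behind the calls leaves it out. The SEs and adjusted p of that fit thus count the shift shared by libraries of equal number as spread. It called 5120 loci in RiD where the block called 11215, so a locus left uncalled is not shown to be unchanged. Any p here reflects only how these libraries vary, which may be technical. Where a group was at 0 in both libraries, the bound on a fold used 3 reads per library, averaged over the group, and where it held 1 to 3 reads the ratio has an exact binomial 95% counting interval. Intervals and bounds cover counting error only.

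The gene lists and families and the loci named were chosen with earlier results of these data known. By rule, the text drew on the 15 largest rises and falls among loci with a symbol and a mean of at least 50 in the higher group, the 10 largest shifts of the mean in each direction, and up to 4 called members per list, with brassinosteroid synthesis and SAUR genes left out. Of the list members counted, 2 are not reported here by name. Other list members, including uncalled regulators, were named after their values were seen. Alternatives were the constant, the filter on low values, quantile normalization, fewer libraries in the fit, no robust moderation, the block and leaving out each library. Upstream regions were the 250 bases before the RefSeq gene start, found for 22093 tested loci.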

Additional observations from a re-analysis of the deposited data

Results flagged for a closer look

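The test of the difference between the change in RiD and the change in Col-0 called 2341 of 23285 loci. Among the leading loci with a mean of at least 10 normalized counts in all 4 groups, 3 were called. For BCB the RiD change exceeded the Col-0 change by 8.24 on the log2 scale (adjusted p = 0.000417), with changes of 8.39 in RiD and 0.15 in Col-0. For PELPK1 the difference was 9.47 (adjusted p = 3.59e-05), larger than the RiD change of 6.89, and PELPK1 was at 241 and 207 in Col-0 mock 1 and 2 and at 39.001 and 34.1 in Col-0 rapamycin 1 and 2. That Col-0 change of -2.58 was not called. For AAP2 the difference was -6.33 (adjusted p = 3.73e-05), with changes of -6.49 in RiD and -0.16 in Col-0.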

How the results depend on the processing

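With the replicate number as a block, limma called 11215 loci in RiD in place of 5120, 43 in Col-0 in place of 0 and 7893 in place of 2341 for the difference between them, and the pairing changed the call of 2 of the 151 loci chosen by rule, with BAK1 gained and HSP17.6A lost. A fit to the 4 RiD mock and rapamycin libraries alone called 2692 loci in RiD, and 32 of the 151 lost their call. Under the other constants, filters, moderation and normalization the RiD count lay between 5008 and 5175, and in the fit to 6 RiD libraries it was 3941. The share of called loci that were higher was 55.8%, 51.3% with quantile normalization, 65.5% with the 4 libraries alone and 49.97% with the block, and quantile normalization moved the median of all loci from -0.03 to -0.08. Leaving out 1 library gave 2945 to 4668 called loci in RiD, 0 to 1 in Col-0 and 1225 to 1890 for the difference. In these fits 1359 values of the 151 loci kept direction and side of the threshold and 149 lost the call. The other 2 were of BRI1 (AT4G39400), whose uncalled log2 change of -0.25 ranged from -0.52 to 0.026, at 0.015 without RiD mock 2 and 0.026 without RiD rapamycin 1. With 2 libraries a group, the spread is estimated from few degrees of freedom, and low loci rest on few reads: the median SE of the log2 change was 0.61 over the 5821 loci with the lowest means and 0.21 over the 5821 with the highest.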

Other observations

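Loci next to each other on a chromosome more often moved the same way than loci further apart. Among adjacent protein-coding genes, 1099 pairs had both members called, and in 727 of them (66.2%) both moved in the same direction. The share was 57.2% for genes 2 places apart, 53.3% for 5 places and 53.7% for 20 places. PELPK1 and PELPK2, which both rose, are such neighbours. Tandem copies and reads shared between them were not separated from other neighbours.

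Stomatal markers differed in size and direction of the change within a short list. TMM, a receptor-like protein of the stomatal lineage, rose from 108 and 118 normalized counts to 387 and 371 (log2 change 1.73, SE 0.19, adjusted p = 0.000477), while SPCH, which starts the lineage, was at 5.16 and 15.2 in mock and 26.4 and 57.3 with rapamycin (log2 change 2.00, SE 0.72, adjusted p = 0.086), and MUTE and the third factor, listed as FMA, were not called. The log2 change was 0.17 for MUTE and -0.67 (SE 0.43) for FMA. With the block 2 of the 4 were higher, SPCH among them (adjusted p = 0.000703), and 1 was lower, which was FMA, the only change below 0. Of the 3 shoot apex markers none was called, with STM at 379 and 397 in mock and 266 and 309 with rapamycin, though the block called STM lower (adjusted p = 0.0165).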
